A study of Homo sapiens with 4 samples.

Results

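The EGR transcription factors and a set of other immediate early genes were examined as 10 named genes (EGR1, EGR2, EGR3, EGR4, IER2, IER3, IER5, DUSP1, ZFP36 and BTG2) of the 20136 protein-coding genes read from the GENCODE annotation on hg19. The study profiled H3K27 acetylation (H3K27ac), a histone mark of active promoters and enhancers, by chromatin immunoprecipitation in 4 established cancer cell lines. The lines are COLO-205 from colon, DU-145 from prostate, and OVCAR-3 and SKOV-3 from ovary, each grown in culture to near confluence, with 1 library per line and no replicates. The lists of called peaks hold 85576 peaks for COLO-205, 75468 for DU-145, 76093 for OVCAR-3 and 14001 for SKOV-3, from an estimated 29804072, 36047378, 34214267 and 22398822 tags. Values given without line names follow this order. For each gene, peaks overlapping 1 kb either side of an annotated transcript start were taken as promoter peaks, and a gene with such a peak is called marked.

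Immediate early genes are switched on within minutes of a growth factor or stress signal and need no newly made protein for it. Mitogen-activated kinases phosphorylate the ternary complex factors, which sit with serum response factor (SRF) on the CArG box of the promoter, and the signal is then passed on by the proteins made, among them the EGR zinc finger factors. Several of the products end the response, since DUSP1 removes the phosphates of the kinases, ZFP36 sends AU-rich messenger RNAs to decay and BTG2 restrains proliferation.

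Of the 10 genes, 7 were marked in COLO-205, where 51.2% of all protein-coding genes were, and 9 in DU-145, where 59.9% were. In OVCAR-3, 8 were marked against 60.5% of all genes, and in SKOV-3, with the shortest list, 5 against 31.6%. EGR1, IER2, IER3, DUSP1 and ZFP36 were marked in all 4 lines, which is 5 of 10 against 25.2% of all genes. EGR4 was marked in no line, EGR3 in DU-145 alone, BTG2 in DU-145 and OVCAR-3, and EGR2 and IER5 in every line but SKOV-3. The −log10 q of a peak is minus the base 10 logarithm of its false discovery rate, and its fold enrichment is the number of tags (mapped fragments) at its summit, the highest point, over the local background. Values are those of the promoter peak of a gene with the highest −log10 q, are not scaled between libraries, and are ranked among all genes with 1 the strongest. Distances are from the canonical start, the start of the transcript tagged as canonical in the annotation, and are negative upstream.

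**Figure D1:**
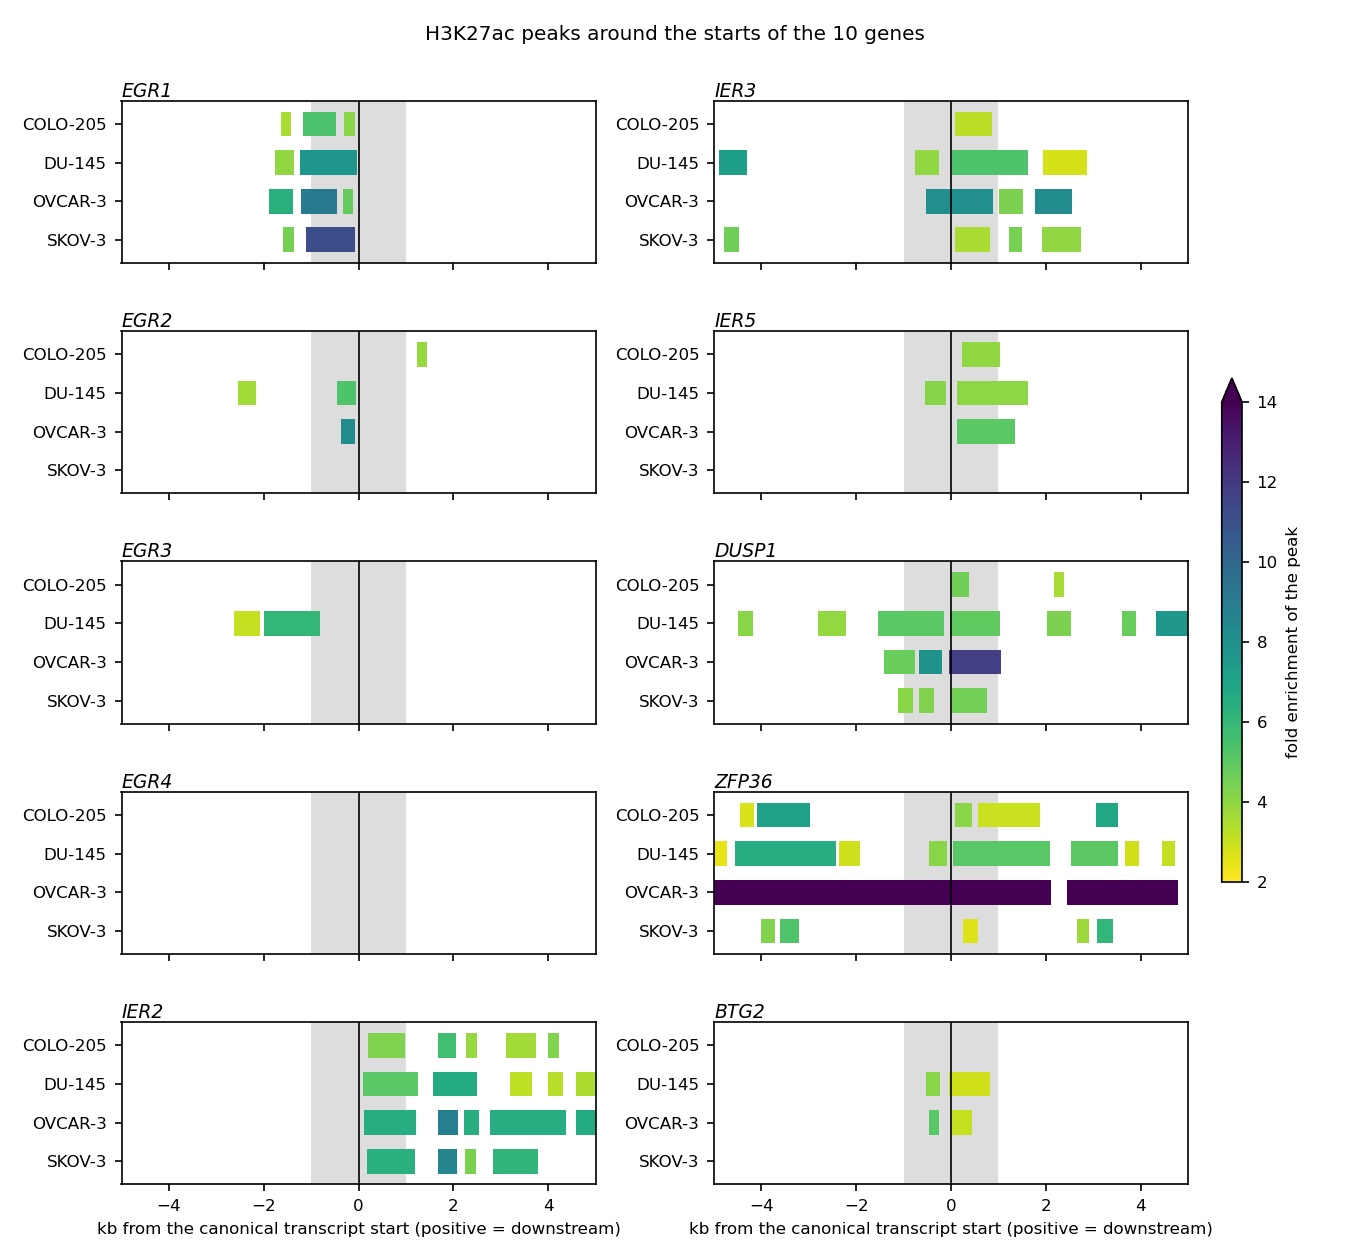
Each panel shows 1 gene and each row 1 line, with boxes for the peaks from 5 kb upstream to 5 kb downstream of the canonical transcript start, coloured by fold enrichment, and a grey band for 1 kb either side. At EGR1 the boxes end before the start in all 4 lines, at IER2 they begin after it, and EGR4 has none.

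EGR1 encodes the founding EGR factor and lies on chromosome 5 from 137801168 to 137804992 on the plus strand. Its −log10 q was 27.98 for COLO-205, 64.5 for DU-145, 77.3 for OVCAR-3 and 62.0 for SKOV-3, with fold enrichments over the local background of 5.398, 7.71, 9.11 and 11.2. Among the 20136 genes of each line this placed EGR1 at rank 1291 for COLO-205, 339 for DU-145, 3178 for OVCAR-3 and 55 for SKOV-3. The fold and the rank of EGR1 were thus highest in the line with the fewest peaks, while its −log10 q was highest in OVCAR-3, at summits that differ in position between the lines.

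The acetylation of EGR1 lay on the upstream side. Peaks covered 75.3% of the kilobase before the start for COLO-205, 96.3% for DU-145, 77.7% for OVCAR-3 and 93.5% for SKOV-3, and 0% of the kilobase after it in every line. The nearest peak ended 84, 38, 112 and 66 bases before the start in the same order, and 0% of the gene body was under a peak. Of all marked genes, 23.2% for COLO-205, 12.5% for DU-145, 12.7% for OVCAR-3 and 20.5% for SKOV-3 had no peak in the kilobase after the start. A further peak, centred at −1.48 kb in an exon of an unnamed long non-coding RNA, was found in all 4 lines.

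The promoter of EGR1 is shown because it holds the CArG boxes through which SRF is known to act and because the peaks reach into it from one side only. The 300 bases run from 250 before to 50 after the start (chr5:137800918-137801217, plus strand, GRCh37), and capitals mark CArG boxes.
EGR1 promoter: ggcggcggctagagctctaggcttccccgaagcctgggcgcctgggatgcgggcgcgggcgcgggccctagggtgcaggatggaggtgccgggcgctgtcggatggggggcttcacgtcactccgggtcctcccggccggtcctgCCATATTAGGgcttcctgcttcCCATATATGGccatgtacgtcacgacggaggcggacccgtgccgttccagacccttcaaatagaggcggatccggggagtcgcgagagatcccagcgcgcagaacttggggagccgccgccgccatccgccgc
The window holds 2 CArG boxes, at −105 to −96 and at −83 to −74 bases from the start. A CArG box on either strand was found in 2 of the 9 promoters read, those of EGR1 and EGR2, and in 1.20% of all 20136 promoters of this length. The part of this window under peaks was 55.7% for COLO-205, 71.0% for DU-145, 46.3% for OVCAR-3 and 61.7% for SKOV-3.

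EGR2, a factor best known from myelinating Schwann cells and the hindbrain, lies on chromosome 10 from 64571756 to 64578927 on the minus strand. Its −log10 q was 6.27 in COLO-205, 22.2 in DU-145 and 40.6 in OVCAR-3, and SKOV-3 had no promoter peak. In DU-145 and OVCAR-3 the strongest peak ended 48 and 64 bases before the canonical start. The 1 COLO-205 peak lay inside the gene, with its summit 1285 bases after that start and 948 bases after the nearest annotated start. DU-145 and OVCAR-3 therefore had the mark just upstream of the start, as at EGR1, and COLO-205 did not. The gene ADO, 3517 bp away, was marked in all 4 lines (13.2, 31.8, 75.1 and 14.8), SKOV-3 among them. The rank of EGR2 was 9164, 5841 and 6344 in the 3 lines with a peak.

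The EGR2 promoter is set beside that of EGR1 for its single CArG box, in capitals (chr10:64576077-64576376, minus strand, GRCh37).
EGR2 promoter: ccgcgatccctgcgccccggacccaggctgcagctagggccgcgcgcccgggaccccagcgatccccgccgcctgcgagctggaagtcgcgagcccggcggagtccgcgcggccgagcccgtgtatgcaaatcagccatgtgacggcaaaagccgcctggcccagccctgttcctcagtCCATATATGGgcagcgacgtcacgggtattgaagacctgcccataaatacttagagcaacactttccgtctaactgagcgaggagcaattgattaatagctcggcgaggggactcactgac
The box lies at −71 to −62 bases from the start and has the same letters as the box of EGR1 nearer to its start. In OVCAR-3, 62.3% of this window was under a peak and in DU-145 67.7%, against 0% in COLO-205 and SKOV-3.

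EGR3 lies on the minus strand, and its promoter sequence is not given here. It had a promoter peak in DU-145 only, with a −log10 q of 29.2 and a fold enrichment of 6.05. That peak was 1180 bp wide, its nearer edge lay 806 bases upstream of the canonical start and its summit at −1741 bases. DU-145 also had 7 distal peaks within 50 kb of EGR3, where OVCAR-3 and SKOV-3 had 2 each and COLO-205 had 0. Within 500 kb either side of EGR3, 8.88% of DU-145 was under peaks, against 0.534% in COLO-205, 3.86% in OVCAR-3 and 1.15% in SKOV-3.

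EGR4, on chromosome 2 from 73518057 to 73520829 on the minus strand, had no promoter peak in any of the 4 lines. Its protein-coding neighbours within 50 kb were marked in most lines. The FBXO41 promoter had a −log10 q of 6.87 for COLO-205, 14.8 for DU-145 and 12.5 for OVCAR-3 and no peak for SKOV-3. The promoter of CCT7 had 11.2, 31.0, 51.8 and 6.82 in the 4 lines. EGR4 shared the lack of a promoter peak in all lines with 5011 genes of the annotation in total, 24.9% of them.

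The IER genes encode small early response proteins. IER2 lies on chromosome 19 from 13261225 to 13265725 on the plus strand, and its canonical start is 28 bp from STX10. Its −log10 q was 23.5 for COLO-205, 43.6 for DU-145, 57.0 for OVCAR-3 and 34.4 for SKOV-3, at ranks 1860, 1471, 4630 and 540. The summit of this peak lay 312, 316, 335 and 346 bases after the nearest annotated start, so its place differed by at most 34 bases between the lines. That nearest start is a second start of IER2 further downstream, at 13262789.

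None of the kilobase before the canonical start of IER2 was under a peak in any line, and 78.8% to 89.8% of the kilobase after it was. The gap from the start to the first peak was 192 bases for COLO-205, 102 for DU-145, 107 for OVCAR-3 and 187 for SKOV-3. Peaks then covered 50.8% of the gene body for COLO-205, 63.5% for DU-145, 76.8% for OVCAR-3 and 58.0% for SKOV-3. The peak just after the canonical start is also the strongest promoter peak of STX10 (14.4, 27.05, 34.4 and 19.3), so the side of the mark cannot be assigned to IER2 alone.

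The second start of IER2 is shown because the strongest peaks sit next to it (chr19:13262539-13262838, plus strand, GRCh37), with a CArG box and the ETS core CCGGAA in capitals.
IER2 second start: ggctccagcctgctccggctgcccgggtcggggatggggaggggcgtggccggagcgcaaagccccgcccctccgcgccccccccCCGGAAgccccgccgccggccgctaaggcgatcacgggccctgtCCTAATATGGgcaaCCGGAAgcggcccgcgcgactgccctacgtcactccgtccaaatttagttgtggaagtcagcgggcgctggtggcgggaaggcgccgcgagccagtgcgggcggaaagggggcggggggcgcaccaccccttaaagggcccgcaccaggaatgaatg
The CArG box lies at −121 to −112 bases from this start, with CCGGAA at −165 to −160 and at −107 to −102. The window of the canonical start of IER2 holds no CArG box and 1 CCGGAA, which reads TTCCGG on the strand of the gene. CCGGAA was found at the canonical starts of 2 of the 9 genes, IER2 and IER5, and in 22.6% of all promoters.

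IER3, known as a survival factor under stress, lies on chromosome 6 from 30710976 to 30712325 on the minus strand. At the IER3 promoter the −log10 q was 11.7 for COLO-205, 27.98 for DU-145, 78.0 for OVCAR-3 and 9.16 for SKOV-3. The OVCAR-3 peak ran across the start, and in the other lines the strongest promoter peak began 74, 13 and 93 bases after it. DU-145 also had a weaker promoter peak, with a −log10 q of 13.3, that ended 261 bases before the start. Peaks covered 58.1%, 98.96%, 91.6% and 63.1% of the gene body in the 4 lines. The gene FLOT1 lies 467 bp from IER3, and in every line but SKOV-3 its strongest promoter peak had the same −log10 q. In SKOV-3 the strongest promoter peak of FLOT1 was another one, with 11.8. The IER3 peak there begins at 30711495, also within 1 kb of the edge of FLOT1 that faces IER3, at 30710509. The value thus cannot be assigned to IER3 alone in any line.

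IER5, linked to heat shock factor, lies on chromosome 1 from 181057836 to 181062036 on the plus strand. The −log10 q of IER5 was 13.6 in COLO-205, 21.3 in DU-145 and 23.6 in OVCAR-3. SKOV-3 had no peak there and 0 peaks within 500 kb either side, where COLO-205 had 36, DU-145 22 and OVCAR-3 15. The SKOV-3 list was thus empty over the whole window and not at the promoter alone. It is the shortest list, and the share of all genes with such an empty window is not given here. Over all genes the median share of the window under peaks was 0.229% in SKOV-3, 0.930% in COLO-205, 1.67% in DU-145 and 1.26% in OVCAR-3.

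DUSP1, the phosphatase that shuts off the kinases, lies on chromosome 5 from 172195099 to 172198198 on the minus strand. Its −log10 q was 16.2 for COLO-205, 30.4 for DU-145, 101 for OVCAR-3 and 12.5 for SKOV-3, with fold enrichments of 4.62, 5.08, 11.8 and 4.57. OVCAR-3 stood above the other 3 lines on both measures, which are not scaled between libraries. The medians over all marked genes were also highest in OVCAR-3, with −log10 q of 12.1, 21.5, 42.7 and 13.9 and fold enrichments of 4.52, 4.77, 7.45 and 5.29. Among all genes of each line DUSP1 ranked 3575, 3611, 2050 and 3594. DUSP1 was covered on both sides of the start in DU-145 (87.4% before and 100% after), OVCAR-3 (74.2% and 100%) and SKOV-3 (53.2% and 72.4%), and after the start only in COLO-205 (36.4%).

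The DUSP1 promoter is shown for exact matches that no other promoter read here held (chr5:172198149-172198448, minus strand, GRCh37). They are TGACGTCA, a form of the cAMP response element, and TATAAA, a form of the TATA box, in capitals.
DUSP1 promoter: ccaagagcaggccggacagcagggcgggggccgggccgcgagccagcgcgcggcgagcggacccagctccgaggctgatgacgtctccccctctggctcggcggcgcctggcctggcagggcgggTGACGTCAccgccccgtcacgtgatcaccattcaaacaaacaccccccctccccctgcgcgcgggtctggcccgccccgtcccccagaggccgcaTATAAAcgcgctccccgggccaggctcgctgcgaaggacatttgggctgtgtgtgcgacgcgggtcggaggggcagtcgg
TGACGTCA lies at −125 to −118 bases from the start and TATAAA at −30 to −25. They were found in 2.68% and 9.81% of all promoters. The AP-1 site TGACTCA (3.58% of promoters) and the EGR site GCGTGGGCG (1.16%) were in 0 of the 9 promoters, and the variant GCGGGGGCG (7.81%) was in that of BTG2 only. A match is an exact run of letters on either strand and says nothing of binding. Other forms of the same elements were not counted, such as the TATATAA in the promoters of EGR4 and IER5.

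ZFP36 lies on chromosome 19 from 39897487 to 39900052 on the plus strand. The −log10 q of ZFP36 was 16.1 for COLO-205, 34.3 for DU-145, 378 for OVCAR-3 and 3.36 for SKOV-3, the lowest and the highest values of all 10 genes, but not all at the same element. The OVCAR-3 peak had a fold enrichment of 26.4 and rank 16, was 8439 bp wide and had its summit at −3872 bases from the start. In the other lines the summit lay 237 to 246 bases after the nearest start, and their peaks at the upstream site, classed as distal, had higher −log10 q of 42.5 in COLO-205, 48.0 in DU-145 and 15.2 in SKOV-3.

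In OVCAR-3 the peak of ZFP36 was part of a wider stretch. Within 500 kb either side of its start 60.7% of the bases were under peaks in OVCAR-3, against 2.14% in COLO-205, 5.31% in DU-145 and 0.614% in SKOV-3, and 63 of the 20136 genes had a higher share in OVCAR-3. Around the start, 31 consecutive bins of 10 kb were each more than 50% covered. The neighbours SAMD4B, PAF1, MED29, PLEKHG2, RPS16 and SUPT5H had promoter −log10 q from 328 to 436 in OVCAR-3 and at most 59.3 in the other lines. The distal peaks within 50 kb had a median fold enrichment of 17.0 in OVCAR-3, against 5.37 over all its peaks. The part of these surroundings in the value of ZFP36 was not tested.

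**Figure D2:**
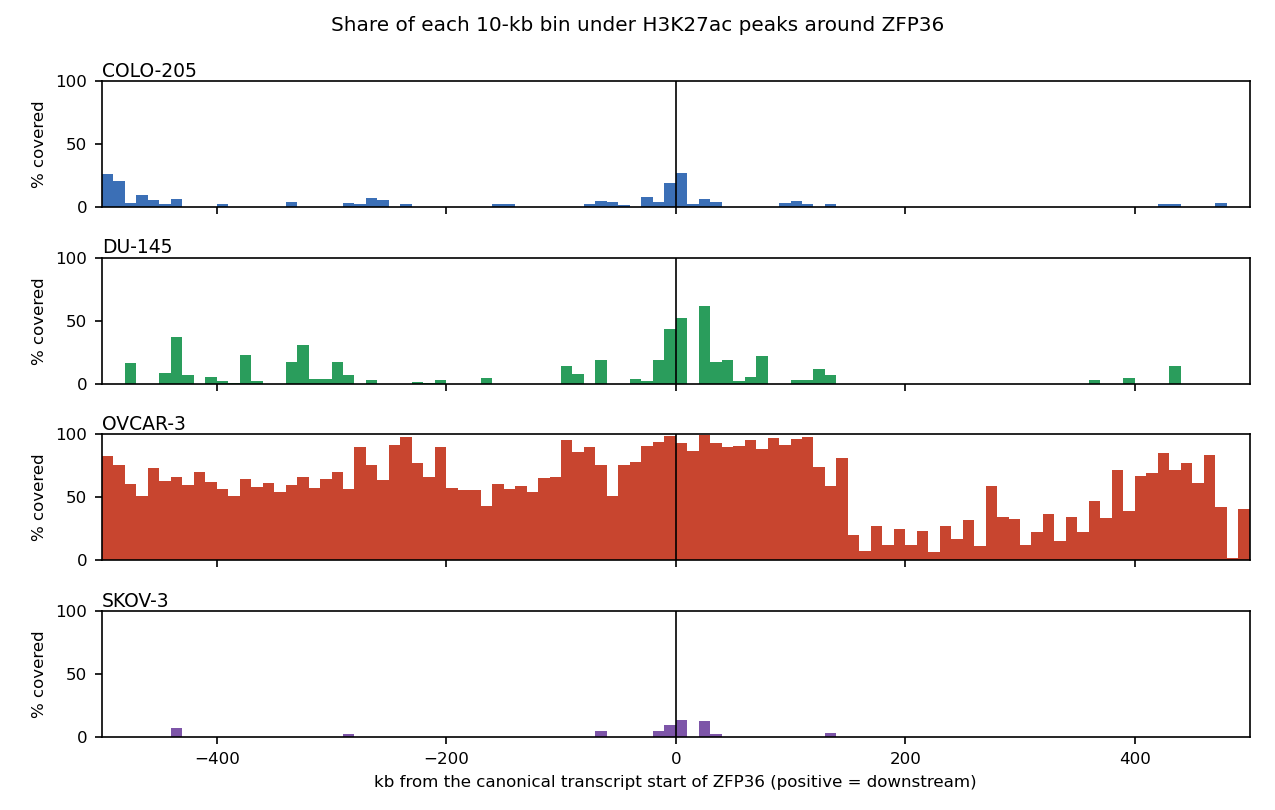
Bars give the percent of each 10-kb bin under peaks from 500 kb upstream to 500 kb downstream of the ZFP36 start (vertical line), 1 panel per line. OVCAR-3 is covered along most of the window, 60.7% in all, against 2.14% in COLO-205, 5.31% in DU-145 and 0.614% in SKOV-3.

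BTG2, a target of p53, lies on chromosome 1 from 203274619 to 203278730 on the plus strand. It was marked in DU-145 with a −log10 q of 17.3 and in OVCAR-3 with 21.7, at ranks 7520 and 8882, and had no promoter peak in COLO-205 or SKOV-3. In both marked lines the strongest peak lay upstream of the start and a wider peak of lower −log10 q lay over or just after it. Its neighbours CHIT1 and FMOD had no promoter peak in any line.

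The depth behind these peaks was recovered as the number of tags at the summit. Per 1000000 tags of the library, EGR1 had 2.48 in COLO-205 (exact Poisson 95% interval 1.95 to 3.12), 3.50 in DU-145 (2.91 to 4.16), 3.83 in OVCAR-3 (3.20 to 4.54) and 4.15 in SKOV-3 (3.35 to 5.09). These EGR1 summits lie at −652 and −604 bases in COLO-205 and OVCAR-3 and at −227 and −221 in DU-145 and SKOV-3. The peaks of COLO-205 and OVCAR-3 nearer the start, at −201 and −234, had 1.61 (1.19 to 2.14) and 1.81 (1.39 to 2.32), below the intervals of DU-145 and SKOV-3. At DUSP1 it was 1.68 (1.25 to 2.21), 2.36 (1.88 to 2.92), 4.24 (3.58 to 4.99) and 1.79 (1.28 to 2.43), and the interval of OVCAR-3 lay above the other 3. The DU-145 summit there is at −402 bases, and its peak at 186 bases, nearer to the summits of the other lines, had 2.14 (1.69 to 2.67). At IER3 it was 1.95 (1.48 to 2.52), 2.05 (1.61 to 2.58), 4.24 (3.58 to 4.99) and 1.88 (1.35 to 2.53), and there too the interval of OVCAR-3 lay above the other 3, with the DU-145 summit at 778 bases and the others at 127 to 228. For IER2 the depth was 1.98 (1.51 to 2.55), 2.64 (2.13 to 3.22), 2.84 (2.30 to 3.46) and 2.72 (2.08 to 3.50), with intervals that all overlapped. These intervals cover counting error only, and a longer fragment length also raises a pileup. How many of all marked genes have an OVCAR-3 interval above the other lines is not given here. The medians of −log10 q and fold enrichment over all marked genes were also highest in OVCAR-3, at 42.7 and 7.45. The values at DUSP1 and IER3 therefore show nothing particular to these genes.

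**Figure D3:**
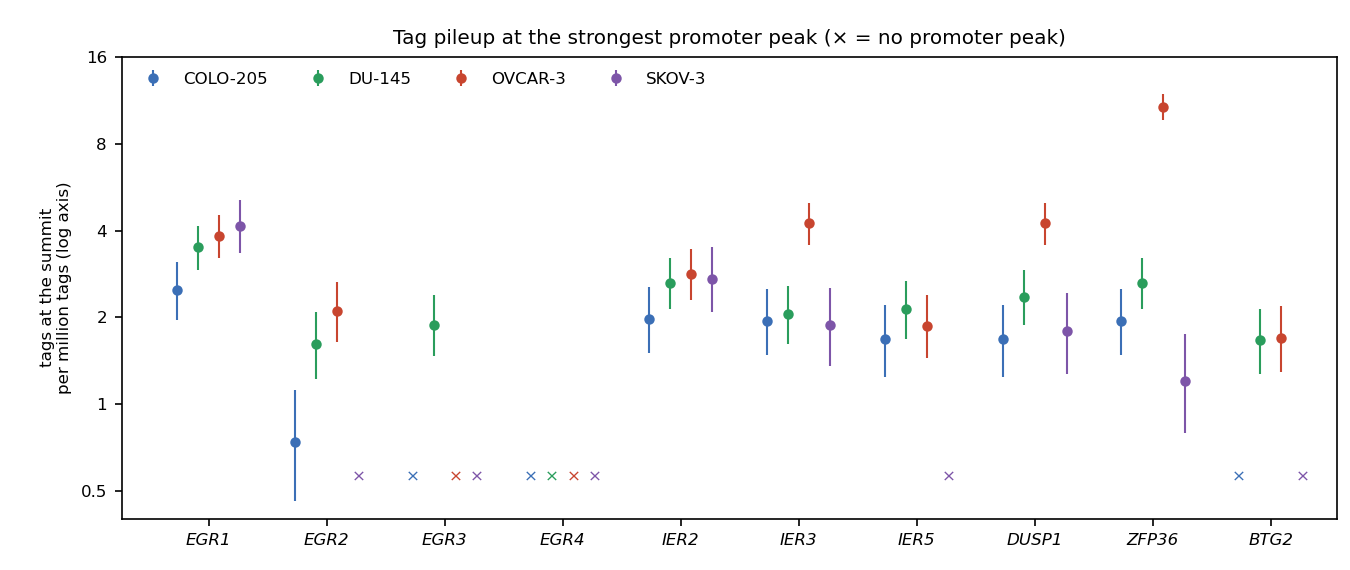
Points give the tags at the summit of the strongest promoter peak per 1000000 tags of the library on a log axis, with exact Poisson 95% intervals, and crosses stand for no promoter peak. ZFP36 in OVCAR-3 is highest at 10.8, with its summit at −3872 bases where the other lines have peaks classed as distal, and EGR2 in COLO-205 is lowest at 0.738.

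By the −log10 q of their promoter peaks, EGR1 and IER2 were in the top 10% of all genes in every line but OVCAR-3, where ZFP36 alone was. That is 2, 2, 1 and 2 of the 10 genes, beside 10% of all genes by construction. Ranked by fold enrichment, no gene of the 10 was in the top 10% in COLO-205. Ranked by the share of the promoter windows under peaks, 5, 7, 6 and 5 were, beside 10% in each line. The windows of the 10 genes were short, with a median of 2092 bases against 4585 over all genes. Over the 2 kb around the canonical start, which is equally long for every gene, 0, 1, 3 and 4 of the 10 were in the top 10%. When only the 5′ end of a gene was taken as its start, IER2 left the top 10% by −log10 q in COLO-205 and DU-145. DUSP1 then joined ZFP36 there in OVCAR-3.

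The genes of the 10 with the canonical start base itself under a peak numbered 0 for COLO-205, 2 for DU-145, 3 for OVCAR-3 and 0 for SKOV-3, beside 12.4%, 33.3%, 32.3% and 6.94% of all genes. DUSP1 and BTG2 made up the DU-145 count, and IER3, DUSP1 and ZFP36 the OVCAR-3 count. Among marked genes of the 10, peaks covered more of the kilobase after the start than of the kilobase before it at 5 of 7 for COLO-205, 6 of 9 for DU-145, 5 of 8 for OVCAR-3 and 4 of 5 for SKOV-3, where the share of all marked genes was 65.8%, 63.4%, 65.7% and 69.4%. EGR1 was on the other side in all 4 lines.

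Distal peaks, at least 1 kb from every protein-coding transcript start and within 50 kb of a gene, numbered 43 around the 10 genes for COLO-205, 100 for DU-145, 55 for OVCAR-3 and 32 for SKOV-3. This order depends on the lists, since with 14001 peaks in every library the numbers were 6, 15, 20 and 32, and with a −log10 q of at least 10 they were 14, 41, 45 and 17. At least 1 such peak was found at 9 of the 10 genes in COLO-205, DU-145 and OVCAR-3 and at 6 in SKOV-3, beside 73.6%, 63.5%, 59.3% and 21.9% of all genes. The median number was 4, 9, 4.5 and 2 for the 10 genes and 2, 2, 1 and 0 for all genes, and 5, 8, 7 and 6 of the 10 were above the median of all genes, beside 45.7%, 42.7%, 44.8% and 21.9% of all genes. The mean of all genes was 5.46, 5.34, 5.05 and 0.582, so that in COLO-205 the 43 peaks of the 10 genes were fewer than that mean would give. IER3 had 23 distal peaks in DU-145 and 2 in COLO-205, and DUSP1 had 18 and 9. EGR2 and EGR4 had at most 1 in each line.

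**Figure D4:**
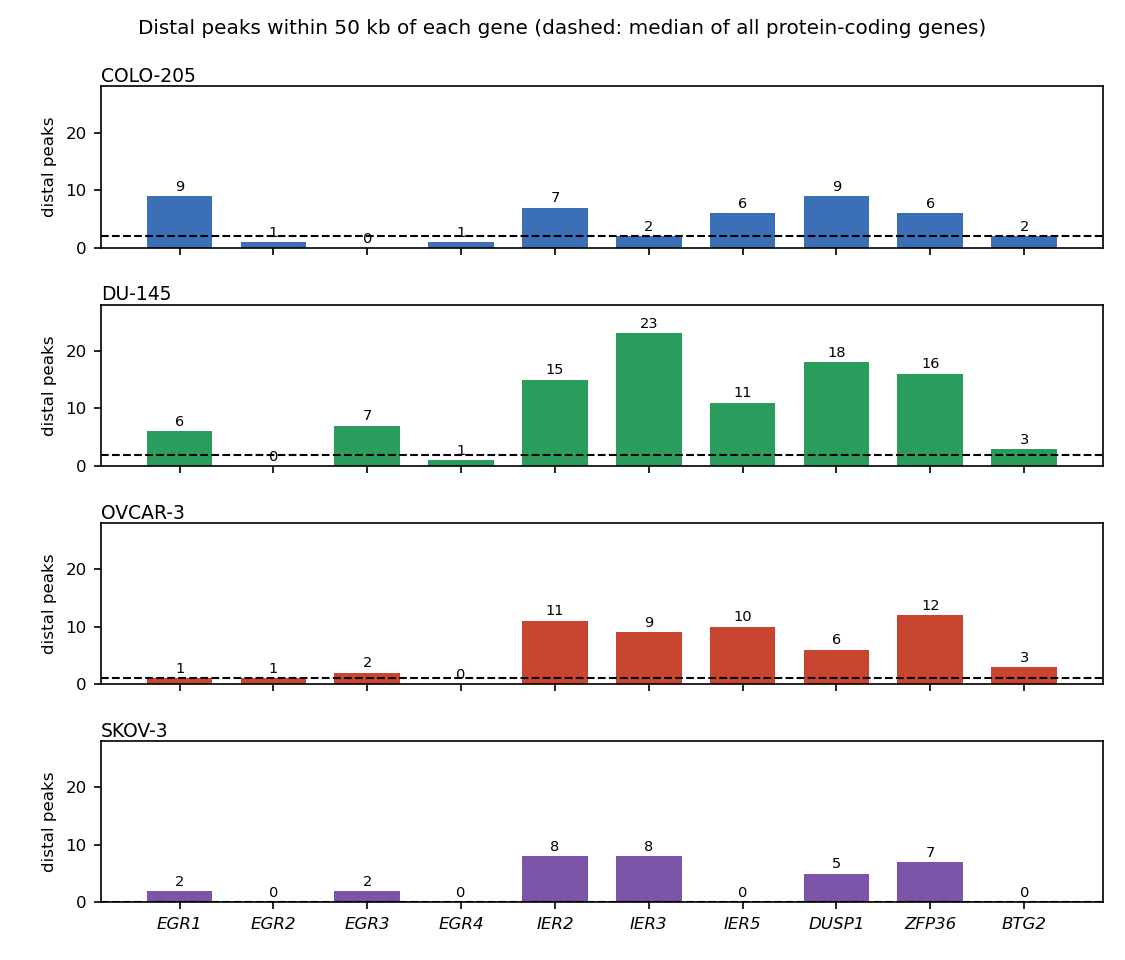
Bars give the number of distal peaks within 50 kb of each gene, 1 panel per line, and the dashed line is the median of all protein-coding genes. EGR2 and EGR4 stay at 0 or 1 in every line, and IER3 reaches 23 in DU-145.

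Joined where they overlapped, the distal peaks of the 10 genes formed 142 regions, of which 93 had a distal peak in 1 line, 31 in 2, 11 in 3 and 7 in all 4. The same split over the distal regions of all genes is not given here, so these counts show nothing particular to the 10 genes. A region is not counted for a line whose peak there reaches a transcript start, which holds for the ZFP36 regions at −3.77 and −8.45 kb, under promoter peaks in OVCAR-3 and distal peaks in the other lines. Of the 7, 4 belonged to IER2 and 1 each to EGR1, DUSP1 and ZFP36. The IER2 region at 3.52 kb lay inside IER2 itself, with its middle in an exon of IER2 and of an unnamed long non-coding RNA. The IER2 region 13.8 kb downstream of the start lay in no annotated gene and had −log10 q of 25.2, 37.5, 80.5 and 22.6. The DUSP1 region at −29.1 kb also lay in no annotated gene, and its −log10 q was 6.87, 9.45, 13.7 and 5.08. Upstream of IER3, 4 regions in introns of the long non-coding RNA HCG20, at −7.23, −8.35, −36.9 and −38.9 kb, were found in DU-145, OVCAR-3 and SKOV-3 and not in COLO-205. For BTG2, the region 22.2 kb downstream was found in COLO-205 with a −log10 q of 12.9, although its promoter had no peak there, and in DU-145 and OVCAR-3 with 34.8 and 57.1.

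The 200 bases around the median summit of this DUSP1 region are shown, since it was found in all 4 lines and lay outside annotated genes (chr5:172227186-172227385, plus strand, GRCh37). The window contains the summits of all 4 lines and none of the motifs, so no letter is in capitals.
DUSP1 region: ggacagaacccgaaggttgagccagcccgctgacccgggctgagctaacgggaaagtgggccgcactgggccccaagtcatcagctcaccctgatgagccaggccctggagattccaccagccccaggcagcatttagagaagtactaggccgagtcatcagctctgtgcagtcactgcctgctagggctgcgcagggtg
A window of this length around the median summit was read in each of the 18 regions found in at least 3 lines, and 1 window held a motif, a CCGGAA near IER3. The rest of each region was not read, and where summits differ between lines a window may hold none of them. Of all 184607 distal summit windows of this length, on either strand, CCGGAA was in 3.11%, TATAAA in 3.92%, TGACTCA in 2.66%, the CArG box in 0.360%, GCGGGGGCG in 0.319%, TGACGTCA in 0.158% and GCGTGGGCG in 0.120%.

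The other genes of the pathway were counted by role. Of 54 such genes, 43 were marked for COLO-205, 49 for DU-145, 47 for OVCAR-3 and 40 for SKOV-3, beside 51.2%, 59.9%, 60.5% and 31.6% of all genes, and 35 were in all 4 lines, beside 25.2%. Upstream of the EGR genes, SRF itself was marked in all 4 lines, and its partner ELK4 had the highest −log10 q of its group in each of them (39.6, 64.9, 252 and 56.7). ELK1 was marked in OVCAR-3 only, ELK3 in DU-145 and SKOV-3, and MRTFA in DU-145 and OVCAR-3. Of the co-repressors that bind EGR factors, NAB2 had no peak in COLO-205 and was the stronger of the pair in DU-145 (75.5) and OVCAR-3 (179), and NAB1 was in COLO-205 (29.5) and SKOV-3 (42.4).

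Among the AP-1 genes, which are induced by the same signals, FOS had the highest −log10 q in DU-145 (52.7), OVCAR-3 (205.3) and SKOV-3 (33.6) and FOSL1 in COLO-205 (34.4). FOSL1 had no peak in OVCAR-3, and FOSB had one in DU-145 only, as EGR3 did. NR4A1 was marked in DU-145 (34.1, the highest of its group there) and OVCAR-3, NR4A3 in COLO-205 and DU-145, and NR4A2 had the highest value in COLO-205 (18.7), OVCAR-3 (90.1) and SKOV-3 (17.3). KLF6 led its group in every line (57.9, 45.4, 129 and 53.8), KLF4 had no peak in SKOV-3, and KLF2 was marked in COLO-205 only.

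Of the other feedback genes of the kinase pathway, DUSP2 was marked in COLO-205 only and DUSP8 in COLO-205 and OVCAR-3. SPRY4 had the highest value in COLO-205 (49.1), DUSP5 in DU-145 (47.3) and SPRED1 in OVCAR-3 (84.2) and SKOV-3 (31.6), each above the value of DUSP1 in that line except in OVCAR-3. All 7 paralogues of the 10 genes were marked in every line, beside 25.2% of all genes, led by TOB1 in COLO-205 (47.2) and DU-145 (67.8) and by ZFP36L1 in OVCAR-3 (206) and SKOV-3 (30.2). In the remaining group SGK1 led in COLO-205 (86.3) and NFKBIA in DU-145 (218), OVCAR-3 (319) and SKOV-3 (37.02). MYC and RHOB lacked a peak in SKOV-3, ATF3 and CCN1 in COLO-205 and SKOV-3, CCN2 and GADD45B in COLO-205, and ARC in all 4 lines.

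**Figure D5:**
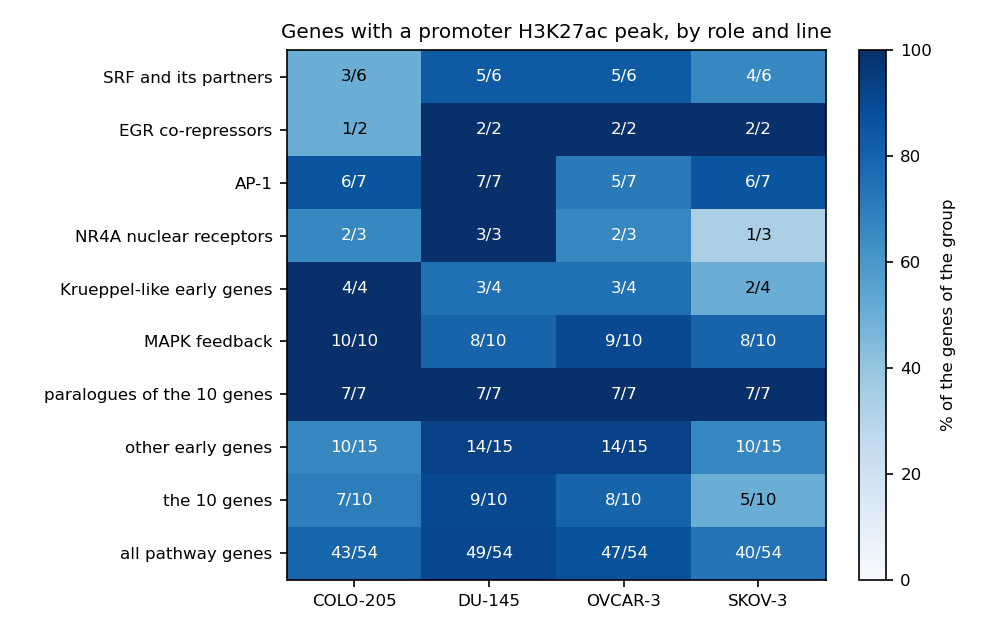
Each cell gives how many genes of a role group had a promoter peak in a line, shaded by the percent of the group. The paralogues of the 10 genes are marked in full in every line, and the 10 genes range from 5 of 10 in SKOV-3 to 9 of 10 in DU-145.

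These values have limits. Each line has 1 library and no replicates, so a difference between lines cannot be told apart from a difference between libraries. SKOV-3 has by far the fewest peaks, and a gene without a peak there may carry the mark below the threshold. Genes with nearby starts can share a peak, as IER3 and FLOT1 or IER2 and STX10 do. A distal peak within 50 kb need not act on the gene. Acetylation was not compared with transcript levels, and induction of the 10 genes was not tested.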

How the data were processed

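H3K27ac ChIP-seq was analysed from 1 peak list for each of 4 cell lines. Reads were aligned by the authors to hg19 using Bowtie2 2.1.0, and peaks were called per library with MACS2 2.1.0.20150603, per the submitters' processing notes and the methods. The deposited columns are a score, which was not used here, the fold enrichment over the local background, the −log10 p and the −log10 q, none scaled between libraries. Neighbouring peaks closer than 350 bp are not merged in the deposited lists, which were used as they are. Overlap meant at least 1 shared base with GENCODE 44 windows on GRCh37. Pileup and background at each summit were solved out of the fold enrichment and −log10 p as deposited, to within 0.001, which succeeded for 100% of the peaks. Tag totals are the lowest background times 2700000000 genome positions over the smallest peak width. With 1 library per line, lines were described and not tested, and counts stand beside the share of all genes. The 10 genes and the lists were chosen with earlier results of these data known. All 10 genes are named, as are their protein-coding neighbours within 50 kb where described, the pathway genes marked in 0 to 3 lines and the strongest of each group in each line. The distal regions printed, the ZFP36 window, the side of the start and the marked start base were chosen after values were seen. Python 3.11.15, numpy 2.4.6, scipy 1.17.1 and matplotlib 3.10.9 were used.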

Additional observations from a re-analysis of the deposited data

How the results depend on the processing

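No paired analysis was possible because each line has a single library and no partner sample. Leaving out ZFP36 and ranking by the 2 kb around the canonical start were chosen after seeing the data. Of 69 values under the alternatives, 43 stayed within 1.5 times the value reported and 26 did not. The cause was not tested except where the alternative itself removes peaks, bases or a gene.

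Merging neighbouring peaks and taking only the 5′ end of a gene kept every count of marked genes within 1.5 times. With a −log10 q of at least 10, 3 genes were marked in SKOV-3 (EGR1, IER2 and DUSP1), beside 22.2% of all genes, and the same 3 in all 4 lines, beside 15.3%. With 14001 peaks in every library, 4 were marked in COLO-205, beside 21.8% of all genes, and 9 in DU-145, beside 37.8%.

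Distal peaks fell with a −log10 q of at least 10 to 14 in COLO-205, 41 in DU-145 and 17 in SKOV-3, with 45 left in OVCAR-3, and with 14001 peaks in every library to 6 in COLO-205, 15 in DU-145 and 20 in OVCAR-3, below the 32 of SKOV-3, so that the line with the fewest distal peaks became the one with the most. Merging gave 33 in OVCAR-3, taking every peak outside the starts of the gene itself 92 in OVCAR-3, and 25 kb gave 66 in DU-145 and 30 in OVCAR-3.

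The number of genes in the top 10% depended on the measure. By fold enrichment it was 0 in COLO-205. By the share of the promoter windows it was 5 for COLO-205, 7 for DU-145, 6 for OVCAR-3 and 5 for SKOV-3, and over the 2 kb around the canonical start 0, 1, 3 and 4. By the 5′ end only it was 1 in COLO-205 and 1 in DU-145, EGR1 without IER2, and 2 in OVCAR-3, DUSP1 and ZFP36. Without ZFP36 it was 0 in OVCAR-3. A gene without a peak may carry the mark below the threshold of a shallower library such as SKOV-3.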

Other observations

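Markers of the tissues were read in the same way, and of all genes 51.2% were marked for COLO-205, 59.9% for DU-145, 60.5% for OVCAR-3 and 31.6% for SKOV-3. Of 7 colon markers, 4 were marked for COLO-205, 1 for DU-145, 1 for OVCAR-3 and 0 for SKOV-3, with CDX2, VIL1 and HNF4A in COLO-205 only. Of 5 ovarian markers, 5 were marked in OVCAR-3, 2 in SKOV-3, 3 in COLO-205 and 2 in DU-145, and in SKOV-3 these were PAX8 and SOX17. The 4 epithelial markers were all marked in COLO-205, DU-145 and OVCAR-3, with KRT8 and KRT18 alone in SKOV-3. Of 3 mesenchymal markers, 2, 3, 2 and 2 were marked in the 4 lines, and of the 3 blood cell markers none was in any line.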
